A study of Mus musculus with 8 samples.

Results

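Neurexins, cerebellins and C1q-like proteins are organizers of the synapse, and the 8 genes described here are Nrxn2, Nrxn3, Cbln1, Cbln2, Cbln3, Cbln4, C1ql1 and C1ql3. They were taken from the table by gene symbol and are 8 of the 18939 genes with at least 1 read in the deposited table. All 8 had 10 or more counts in every library. None of the 8 passed the test between morphine and control libraries against the spread of replicates, and 3 cerebellins (Cbln1, Cbln2 and Cbln4) were high in the same 2 of the 4 morphine libraries.

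The libraries hold ribosome-bound RNA of the paraventricular nucleus of the thalamus (PVT), a midline thalamic nucleus active in arousal. It was purified by translating ribosome affinity purification (TRAP), in which antibodies to GFP pull down the tagged ribosomal protein EGFP-L10a with the mRNAs on those ribosomes. The mice of both groups carried Cre recombinase in the mu opioid receptor gene (OPRM1cre) and the EGFP-L10a allele, which is made only in cells with Cre, on a C57Bl/6J background, and were 8 to 12 weeks old at the start of the experiment. The 4 morphine libraries came from mice whose drinking fluid for 11 days was 0.2% saccharin with morphine, at no more than 0.5 mg/ml, and the 4 control libraries from mice given the saccharin without it. Each library pooled the dissections of 2 mice of 1 sex, with 2 male and 2 female libraries per group (control replicates 1, 2, 5 and 6 and morphine replicates 3, 4, 7 and 8, the lower 2 numbers of each group being male). Cre marks every cell type that has used the receptor gene, and the dissection was gross, so tagged cells outside the PVT can contribute.

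Neurexins are presynaptic adhesion proteins, each gene making long α forms and short β forms from separate promoters, and alternative splicing at several sites sets which partners they bind. Cerebellins are secreted proteins of the C1q family that bridge neurexins carrying the insert at splice site 4 to GluD receptors on the postsynaptic cell, and the thalamus is one of the regions outside the cerebellum that makes them. C1q-like proteins are secreted relatives that bind the adhesion receptor BAI3, and some of them bind neurexins. Because a neuron can be on either side of such a bridge, expression in PVT neurons concerns both the synapses they make and those they receive.

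The insert at splice site 4 is a single cassette exon of 90 bases, shown here because it decides whether a neurexin can bind cerebellins. In Nrxn3 it is a coding exon at chr12:90199147-90199236, on the plus strand of GRCm38 (RefSeq exon positions), and it is printed in lower case throughout, since no part of it is singled out. All 3 transcript rows of Nrxn2 and all 3 of Nrxn3 in the table contain the 90-base exon, so the counts do not separate transcripts with and without it.
Nrxn3 exon: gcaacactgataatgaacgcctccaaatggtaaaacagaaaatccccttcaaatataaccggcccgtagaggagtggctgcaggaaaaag

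The α and β rows of Nrxn3 have their first bases far apart, and the 250-base stretches upstream of them differ in their content of the dinucleotide CG. Those of the longest α row and of the β row are printed, since the table has a row for each form, from RefSeq on GRCm38, plus strand, with each CG in capitals. The first base is that of the RefSeq record, which need not be where transcription starts, and the gene is annotated from upstream of both α rows. The stretch before the longest α row ends in ag after a run rich in c and t, as introns do. It may thus be intron rather than promoter, and its letters may not compare with those of the other stretches. The stretch before the longest α row, at chr12:88794254-88794503, held 2 CG, that upstream of the shorter α row, at chr12:88953140-88953389 and not directly adjoining that row's first base at 88953399, held 5, and that before the β row, at chr12:89812233-89812482, held 12. Over 32851 such stretches of all genes, the median was 6 CG. The letters TATAAA, searched on both strands, were in none of the 3 stretches and in 12.4% of all stretches.
Nrxn3 α: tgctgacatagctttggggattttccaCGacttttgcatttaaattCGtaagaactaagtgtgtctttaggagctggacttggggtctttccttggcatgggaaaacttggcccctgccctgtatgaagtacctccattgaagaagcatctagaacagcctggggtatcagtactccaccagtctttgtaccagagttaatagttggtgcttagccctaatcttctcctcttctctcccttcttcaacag
Nrxn3 β: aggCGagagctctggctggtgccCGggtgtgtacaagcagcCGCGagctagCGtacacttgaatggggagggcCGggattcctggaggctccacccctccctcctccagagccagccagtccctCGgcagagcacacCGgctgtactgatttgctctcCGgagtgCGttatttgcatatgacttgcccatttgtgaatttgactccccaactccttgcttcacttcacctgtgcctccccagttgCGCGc

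Totals were 37081348 to 43311793 counts in the control libraries and 31151103 to 47582947 in the morphine libraries. Oprm1, the gene of the mu opioid receptor, had 463 to 1307 counts, at 16.8 to 32.3 CPM (counts scaled to a common library size) in control and 14 to 18.4 CPM in morphine libraries. Slc17a6, the vesicular glutamate transporter of thalamic neurons, lay between 215 and 350 CPM. The summed CPM of 7 thalamic markers was 2205 to 2967 in control and 1638 to 2911 in morphine libraries, and 7 of 7 had a log2 fold change below 0 (median -0.29). All 8 oligodendrocyte markers were above 0 (median 0.65), with sums of 89.1 to 1059 CPM and 503 to 1392 CPM. All 12 of 12 markers of the choroid plexus, which lies next to the PVT, had a log2 fold change of morphine over control above 0 (median 1.99), with summed levels of 17.1 to 90 CPM in control and 118 to 388 CPM in morphine libraries. The 12 telencephalic pyramidal neuron markers, of which 11 were measured, summed to 694 to 944 CPM in control and 912 to 1196 CPM in morphine libraries. Of these, 9 had a log2 fold change above 0 and 2 below (median 0.88). At an unadjusted p under 0.05 by edgeR, 5 were higher and 2 lower. The telencephalic and choroid plexus markers were also used as scores in the model. This left 1 and 0 of 18939 genes past the adjusted threshold by edgeR (1290 and 656 unadjusted), and 0 of the 8 described here. The summed choroid plexus levels did not overlap between the groups, so a fit with both cannot well separate that score from morphine. The standard error of Nrxn3 was 0.11 in the main fit and 0.20 with either score. Control replicate 5, labelled female, had reads of 4 Y-linked genes, at 28.7% to 35.8% of the mean of male libraries, and the remaining libraries of that sex held no more than 2 counts of each.

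The main question of the design is whether chronic morphine changed the level of these mRNAs. By the quasi-likelihood test of edgeR, adjusted over all genes by Benjamini-Hochberg, 0 of the 8 genes passed an adjusted p of 0.05, where 37 of 18939 genes (0.195%) did. Without adjustment, 0 of 8 were under 0.05, against 12.1% of all genes. In 0 of 8 did every morphine library lie above every control library, which held for 3.34% of genes, and in 0 of 8 below, which held for 3.21%. DESeq2 called 0 of 8 and 3.29% of the 15260 genes it adjusted. The log2 fold change was above 0 for 6 genes and below 0 for 2, with a median of 0.20 against 0.01 over all genes. In bulk RNA of this kind, fewer cells of a type and less RNA per cell cannot be told apart.

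**Figure D1:**
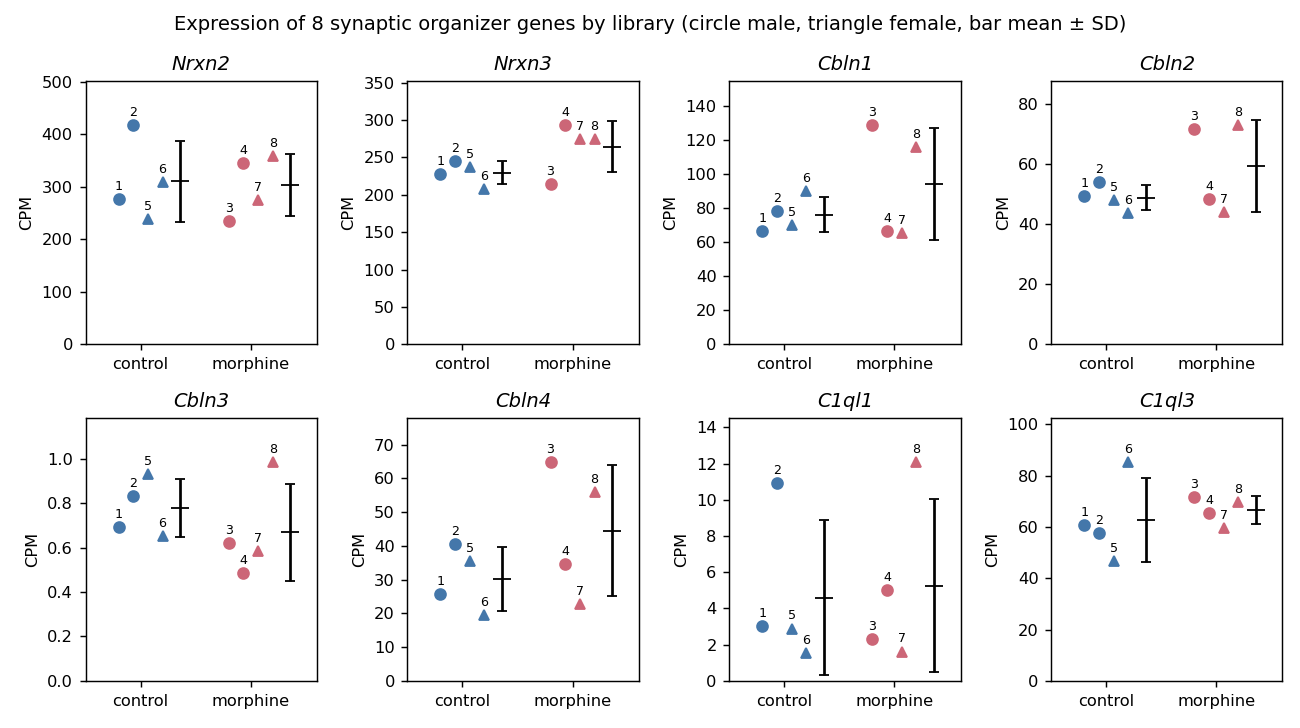
Level of each gene in CPM (vertical axis, from 0) in the 4 control and 4 morphine libraries, with circles for male and triangles for female libraries, replicate numbers above the points and a bar for the mean ± SD. The 2 groups overlap in all 8 panels, and Cbln1, Cbln2 and Cbln4 are highest in morphine replicates 3 and 8.

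Set on a scale per length (CPM per kilobase of the row used), the control levels ran from Nrxn2 at 46.6 ± 11.6 (SD, n = 4) to Cbln3 at 0.160 ± 0.027. Between them came Nrxn3 at 29.0 ± 2.01, Cbln1 at 27.2 ± 3.71, C1ql3 at 24.7 ± 6.47, Cbln2 at 19.2 ± 1.68, Cbln4 at 10.4 ± 3.26 and C1ql1 at 3.12 ± 2.90. The ranges of neighbours in this order did not overlap between Nrxn2 and Nrxn3, between Cbln2 and Cbln4, and between C1ql1 and Cbln3. Nrxn3, Cbln1, C1ql3 and Cbln2 formed a run in which each overlapped the next. A row's length is that of 1 annotated transcript, so the order rests on that transcript being the one made.

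Of the neurexins, Nrxn2 (chr19:6418756-6533217, plus strand) was read at 277, 418, 239 and 309 CPM in control replicates 1, 2, 5 and 6 and at 235, 346, 275 and 359 CPM in morphine replicates 3, 4, 7 and 8. The highest library was a control and the lowest a morphine library, and the groups overlapped, with control replicate 2 above every morphine library. The means were 311 ± 77.0 and 304 ± 59.2 CPM (SD, n = 4 each), a log2 fold change of -0.03 (SE 0.18, 95% interval -0.43 to 0.36). The adjusted p was 0.964 by edgeR. Without control replicate 2 the estimate was 0.14 and without morphine replicate 3 it was 0.07, so its sign rests on single libraries. Gm14964 is annotated on the opposite strand over exons of Nrxn2, and whether the counting used strand is not given in the sources used here.

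Nrxn3 (chr12:88722701-90334935, plus strand) had the smallest unadjusted p of the 8 genes by edgeR (0.0936, with Cbln4 at 0.0969), and by DESeq2 Cbln4 had the smallest (0.069, with Nrxn3 at 0.0955). It stood at 228, 245, 237 and 208 CPM in control replicates 1, 2, 5 and 6, and at 215, 294, 275 and 275 CPM in morphine replicates 3, 4, 7 and 8. Morphine replicates 4, 7 and 8 lay above all 4 control libraries, and morphine replicate 3 lay among the controls. The summed thalamic markers split the same libraries, at 1638, 2099 and 2102 CPM in morphine replicates 4, 7 and 8, below all controls, and 2911 CPM in morphine replicate 3. The telencephalic markers did so in the other direction, at 1196, 980 and 1138 CPM, above all controls, against 912 CPM. When the telencephalic score was a covariate, Nrxn3 stood at 0.20 (SE 0.20) on the log2 scale, and the part of the thalamic markers was not tested. The means of 230 ± 15.9 and 265 ± 34.4 CPM gave a log2 fold change of 0.20 (SE 0.11, 95% interval -0.04 to 0.45) and an adjusted p of 0.509 by edgeR. Without morphine replicate 3 the estimate was 0.29 (SE 0.09), and it did not pass the adjusted threshold there either. The transcript Gm37980 overlaps an exon of Nrxn3 on the opposite strand.

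The 3 rows of Nrxn3 share most of their reads, since a read in a common exon was counted on each row. The longest α row has 7922 bases in 20 exons, a shorter α row 4634 bases in 20 exons, and the β row 3654 bases in 7 exons, of which 68.1% are shared with the longest row. The β row held 83.1%, 75.9%, 80.4% and 74.1% of the count of the longest row in control replicates 1, 2, 5 and 6, and 80.6%, 72.2%, 72.1% and 73.8% in morphine replicates 3, 4, 7 and 8. Morphine replicates 4, 7 and 8 were below all control libraries, and morphine replicate 3 was above 3 of the 4. The groups overlapped, and the 3 lowest ratios were those of the 3 libraries in which Nrxn3 itself was above the controls. The longest row gives both the Nrxn3 level and the denominator of the ratio, so the ratio and the level are not independent. For Nrxn2 the 2 shorter rows held 93.3% to 95.8% of the longest row's count in all 8 libraries.

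**Figure D2:**
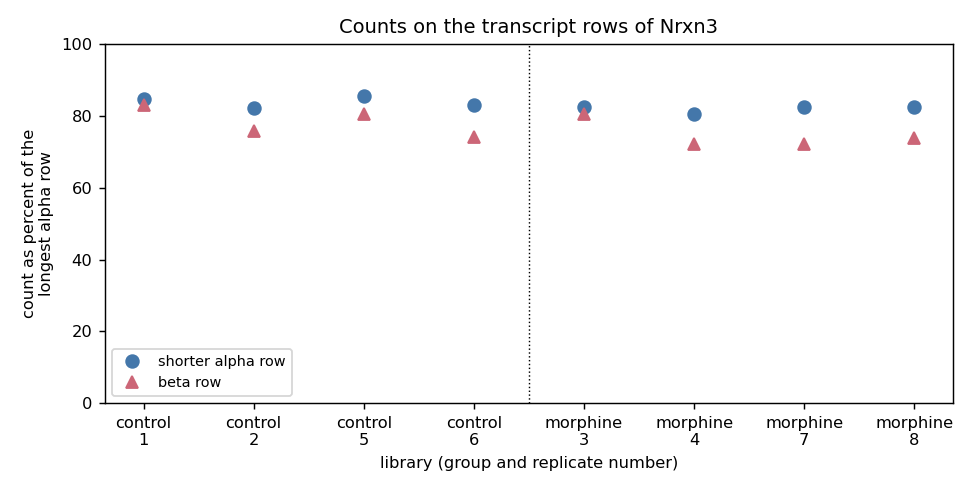
Count of the 2 shorter Nrxn3 transcript rows as a percent of the count of the 7922-base α row (vertical axis, 0 to 100) in each library, with circles for the 4634-base α row and triangles for the 3654-base β row. The β row spans 72.1% to 83.1%, and the control and morphine libraries overlap.

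Over the 8 libraries, the genes whose log2 CPM followed Nrxn3 most closely among 12988 other genes with a mean of at least 1 CPM were Dcc (Pearson r 0.975), Txnl4b (0.971), Fstl4 (0.964), Lrrc4c (0.945) and Sh3bgrl3 (0.938). Dcc encodes a netrin receptor of growing axons, and Lrrc4c a synaptic ligand of netrin-G1. They were picked as the highest of many over 8 points that share their libraries and depth, so the values describe and test nothing.

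Among the cerebellins, Cbln1 (chr8:87468853-87472592, minus strand), a secreted bridge at granule cell synapses of the cerebellum, was at 66.6, 78.5, 70.1 and 89.9 CPM in control replicates 1, 2, 5 and 6. In morphine replicates 3, 4, 7 and 8 it was at 129, 66.9, 65.2 and 116 CPM. Morphine replicates 3 and 8 were above every control library, morphine replicate 4 was near the bottom of the control range, and morphine replicate 7 was the lowest of all 8 libraries. The means were 76.3 ± 10.4 and 94.3 ± 33.0 CPM, with a log2 fold change of 0.31 (SE 0.21, 95% interval -0.16 to 0.77) and an adjusted p of 0.610 by edgeR. The estimate was 0.12 without morphine replicate 3 and 0.19 without morphine replicate 8.

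Cbln2, a cerebellin made by neurons in many forebrain regions, was at 49.4, 54.2, 48.1 and 43.8 CPM in control replicates 1, 2, 5 and 6 and at 71.8, 48.3, 44.0 and 73.1 CPM in morphine replicates 3, 4, 7 and 8. Morphine replicates 3 and 8 again stood above all controls, and the other 2 morphine libraries lay within the control range. The means of 48.9 ± 4.28 and 59.3 ± 15.3 CPM gave a log2 fold change of 0.28 (SE 0.16, 95% interval -0.08 to 0.64) and an adjusted p of 0.541 by edgeR. Leaving out morphine replicate 3 gave 0.18 and leaving out morphine replicate 8 gave 0.16.

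Cbln4 (chr2:172036336-172043466, minus strand), which takes part in inhibitory synapse formation in the cortex, was at 25.9, 40.5, 35.4 and 19.4 CPM in control replicates 1, 2, 5 and 6. In morphine replicates 3, 4, 7 and 8 it was at 65.0, 34.5, 22.7 and 56.0 CPM. The same 2 morphine libraries were the highest, and the range over all 8 libraries was 3.35-fold. The means were 30.3 ± 9.46 and 44.6 ± 19.4 CPM, with the largest fold estimate of the 8 genes, 0.56 on the log2 scale (SE 0.31, 95% interval -0.12 to 1.23), and an adjusted p of 0.514 by edgeR. Without morphine replicate 3 the estimate fell to 0.32, and without morphine replicate 7 it was 0.76. Neither passed after adjustment.

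**Figure D3:**
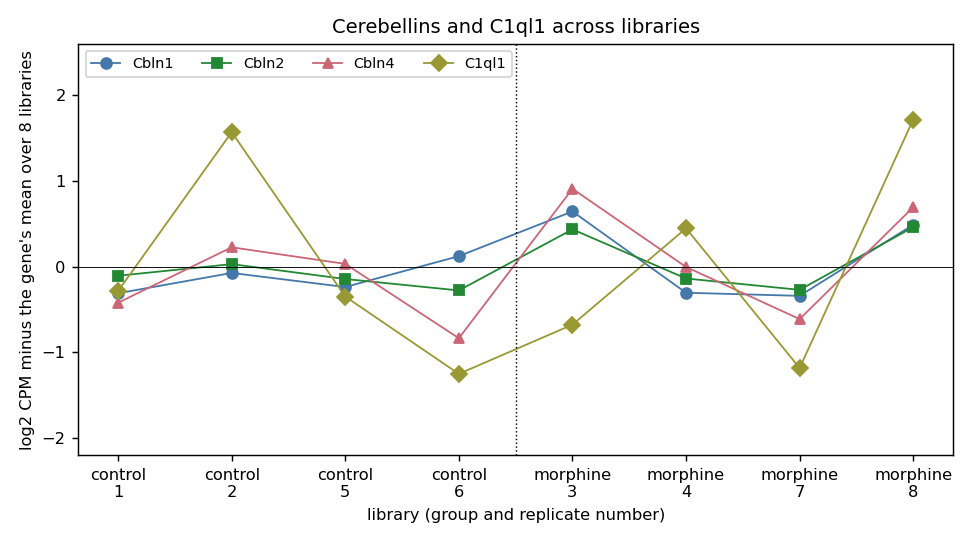
Log2 CPM of Cbln1, Cbln2, Cbln4 and C1ql1 in each library minus that gene's mean over the 8 libraries (vertical axis), controls left and morphine right of the dotted line. The 3 cerebellins are highest in morphine replicates 3 and 8, and C1ql1 is highest in control replicate 2 and morphine replicate 8.

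Across the 8 libraries and 28 pairs of the 8 genes, Pearson's r of log2 CPM ran from -0.36 to 0.92. The highest was between Cbln2 and Cbln4, with r = 0.924 (exact two-sided permutation p = 0.000546, Benjamini-Hochberg adjusted over the 28 pairs 0.0153). Its Spearman's rho was 0.881 (exact permutation p = 0.00724, adjusted 0.203), and r was 0.844 without morphine replicates 3 and 8, the libraries farthest from the median of Cbln2. Cbln1 and Cbln2 gave r = 0.848 (exact permutation p = 0.0193, adjusted 0.271) and rho = 0.524 (exact permutation p = 0.197, adjusted 0.681). That relation rests on the same 2 libraries, since r was -0.08 without them. Of the 28 pairs, 1 had an adjusted p of r under 0.05, and r was not computed within the groups of 4 libraries, so differences between the groups enter these values. The summed thalamic markers were 2911 CPM in morphine replicate 3 and 2102 CPM in morphine replicate 8. The 8 oligodendrocyte precursor markers were highest in the same 2 libraries, at 149 and 171 CPM against 97.4 to 141 CPM in the other 6, and their part in the cerebellin levels was not tested. When the telencephalic score was a covariate, Cbln4 stood at 1.34 (SE 0.40) and Cbln2 at 0.55 (SE 0.24) on the log2 scale, and when the choroid plexus score was, Cbln1 stood at 0.03 (SE 0.34). None of the 3 passed after adjustment by edgeR, in fits where 1 and 0 of all genes did. The choroid plexus score cannot be well separated from morphine in such a fit.

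Cbln3 (chr14:55878920-55884256, minus strand), which in the cerebellum is made by granule cells and needs Cbln1 for its secretion, was the lowest of the 8 genes, at 16 to 48 counts per library. It stood at 0.692, 0.833, 0.932 and 0.652 CPM in control replicates 1, 2, 5 and 6 and at 0.618, 0.484, 0.585 and 0.987 CPM in morphine replicates 3, 4, 7 and 8. The groups overlapped, and the single highest library was morphine replicate 8. The means of 0.777 ± 0.129 and 0.668 ± 0.220 CPM gave a log2 fold change of -0.20 (SE 0.29, 95% interval -0.83 to 0.43) and an adjusted p of 0.810 by edgeR. It was -0.47 without morphine replicate 8, -0.08 without morphine replicate 4 and -0.12 without control replicate 5. Gabra6 and Fat2, defining genes of cerebellar granule cells, had at most 6 and 19 counts in any library, and the whole list of 7 such markers summed to 184 to 295 CPM in control and 171 to 269 CPM in morphine libraries.

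Of the C1q-like genes, C1ql3 (chr2:13001887-13010864, minus strand), a secreted BAI3 ligand of forebrain neurons, was at 60.6, 57.7, 46.6 and 85.5 CPM in control replicates 1, 2, 5 and 6 and at 71.8, 65.4, 59.7 and 69.6 CPM in morphine replicates 3, 4, 7 and 8. The control libraries spanned both the lowest and the highest value, and all morphine libraries lay between them. The means were 62.6 ± 16.4 and 66.6 ± 5.30 CPM, with a log2 fold change of 0.09 (SE 0.16, 95% interval -0.26 to 0.44) and an adjusted p of 0.853 by edgeR. Its sign turned without control replicate 5 (-0.04). The transcripts Gm37811 and Gm37824 overlap its exons on the opposite strand.

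C1ql1 (chr11:102939264-102946716, minus strand), the climbing fiber ligand of BAI3 in the cerebellum, varied most of the 8 genes. It was at 3.03, 10.9, 2.89 and 1.55 CPM in control replicates 1, 2, 5 and 6 and at 2.31, 5.03, 1.62 and 12.1 CPM in morphine replicates 3, 4, 7 and 8. A single library in each group, control replicate 2 and morphine replicate 8, stood far above the rest, and the range was 7.82-fold on 50 to 589 counts. The means of 4.60 ± 4.28 and 5.26 ± 4.79 CPM gave a log2 fold change of 0.20 (SE 0.66, 95% interval -1.24 to 1.64) and an adjusted p of 0.925 by edgeR. The estimate was 1.09 without control replicate 2 and -0.63 without morphine replicate 8.

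Oligodendrocyte precursors and astrocytes are other cells the dissection holds, and their markers were read beside C1ql1. The 8 astrocyte markers summed to 18.2 to 70.5 CPM in control and 31.7 to 79.3 CPM in morphine libraries, and were highest in control replicate 2 and morphine replicate 8, the libraries in which C1ql1 was highest. The 8 precursor markers summed to 97.4 to 141 CPM and 128 to 171 CPM, with control replicate 2 at 132 CPM and morphine replicate 8 at 171 CPM. The part of these cells in the C1ql1 level was not tested.

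The other C1q-like genes of the table are C1ql2 and C1ql4. C1ql2, a ligand released by dentate granule cells at their mossy fiber terminals, averaged 11.1 ± 2.66 CPM in control and 21.9 ± 11.3 CPM in morphine libraries. Every morphine library was above every control library, with morphine replicate 8 at 38.8 CPM. Its log2 fold change was 0.98 (SE 0.29, 95% interval 0.34 to 1.63), with an adjusted p of 0.204 by edgeR and 0.033 by DESeq2, so the call depends on the tool. The 8 dentate granule cell markers had a median log2 fold change of 1.00, with 6 above 0 and 2 below. Their summed levels were 208 to 275 CPM in control and 222 to 334 CPM in morphine libraries. C1ql4 had 7 to 114 counts per library and a log2 fold change of 0.83 (SE 0.66, adjusted p 0.653 by edgeR).

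**Figure D4:**
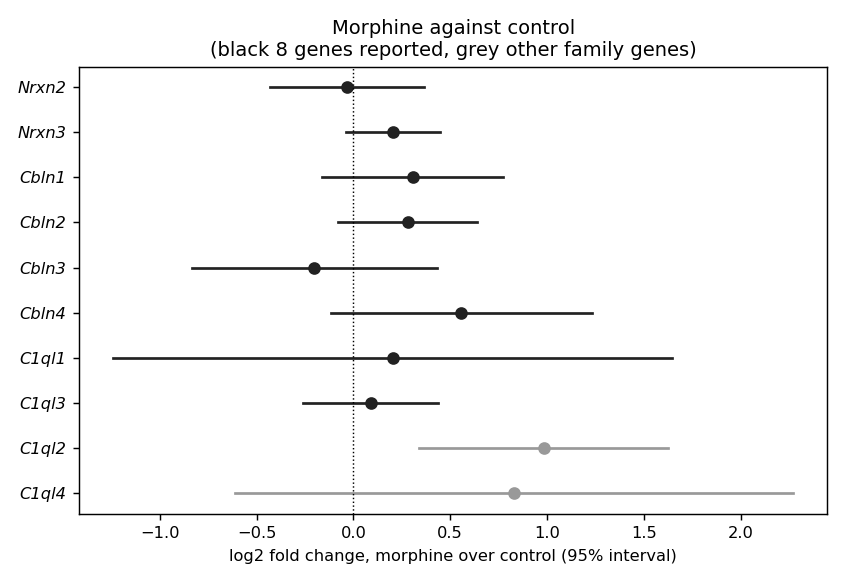
Log2 fold change of morphine over control by edgeR (horizontal axis, point) with its 95% interval (line) for the 8 genes in black and for C1ql2 and C1ql4 in grey. All 8 black intervals cross 0, and that of C1ql2 (0.34 to 1.63) does not.

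The sexes were compared in the same table. Of the 8 genes, 0 had an unadjusted p under 0.05 between female and male libraries, where 3.1% of all genes did, and 0 passed adjustment, where 1 gene (0.00528%) did by edgeR. For the interaction of sex and morphine, 1 of the 8 genes, C1ql1, had an unadjusted p under 0.05, against 1.72% of all genes, and 0 of 8 passed adjustment, where 0% of genes did. The C1ql1 fold change was -0.93 (SE 0.77) in male and 1.64 (SE 0.79) in female libraries on the log2 scale, a difference of 2.57 (SE 1.10). The adjusted p was 1 by edgeR. These values count control replicate 5, with its Y-linked reads, as female. Without it 1 female control library is left, assumed to vary like the others, and the C1ql1 difference was 3.09 (SE 1.30), C1ql3 also had an unadjusted p under 0.05 for the interaction, at -0.61 (SE 0.27), and 0 of 8 passed adjustment (1.64% of all genes were under an unadjusted 0.05). There were 2 libraries per sex and group, and the highest values were those of control replicate 2 among males and morphine replicate 8 among females.

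The partners of these proteins were read as 25 genes in 6 roles, all of them measured. By edgeR, 0 of 25 passed an adjusted p of 0.05 (0.195% of all genes), and by DESeq2 1 of 25, Lrrtm4, did (3.29% of all genes). Without adjustment 3 were under 0.05 by edgeR and higher in morphine libraries, and 0 lower, a share near the 12.1% of all genes. The log2 fold change was above 0 for 15 and below 0 for 10, with a median of 0.04 against 0.01 over all genes. Of the 10 postsynaptic ligands of neurexins, 9 were above 0 and 2 were among those 3. All 3 cytoplasmic partners of neurexins (Cask, Apba1 and Apba2) were below 0, with a median of -0.15. None of these role counts was tested as a set.

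The 3 partners with the lowest p were Lrrtm4, Nlgn1 and Bai3. Lrrtm4, a postsynaptic leucine-rich repeat protein that binds neurexins, was at 10.2, 16.6, 11.0 and 12.2 CPM in control replicates 1, 2, 5 and 6 and at 18.9, 23.8, 20.2 and 29.8 CPM in morphine replicates 3, 4, 7 and 8. All morphine libraries were above all control libraries. Its means of 12.5 ± 2.85 and 23.2 ± 4.90 CPM gave a log2 fold change of 0.89 (SE 0.18), with an adjusted p of 0.0817 by edgeR and 0.000883 by DESeq2, so here too the call depends on the tool.

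Nlgn1, the neuroligin of excitatory synapses, averaged 45.2 ± 7.20 CPM in control and 62.5 ± 11.8 CPM in morphine libraries, with a log2 fold change of 0.47 (SE 0.15, adjusted p 0.242 by edgeR and 0.104 by DESeq2). Bai3, the receptor of C1q-like proteins, averaged 51.5 ± 8.74 and 65.0 ± 6.89 CPM, with a log2 fold change of 0.34 (SE 0.13, adjusted p 0.320 by edgeR and 0.205 by DESeq2). Both overlapped between groups. Grid1, a GluD receptor of cerebellins, stood at 0.19 (SE 0.17) on the log2 scale. The neurexin splicing factors Khdrbs1, Khdrbs2 and Khdrbs3, which promote skipping of the exon at splice site 4, had log2 fold changes of -0.06 (SE 0.13), -0.21 (SE 0.15) and 0.04 (SE 0.11), none under an unadjusted p of 0.05.

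**Figure D5:**
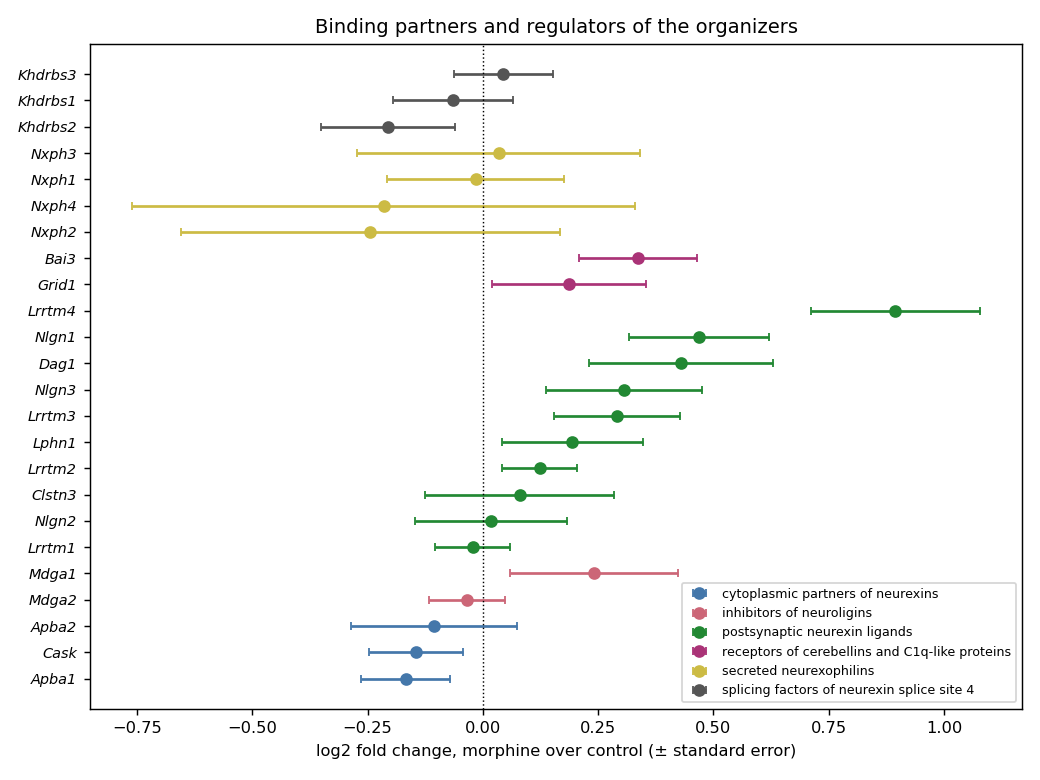
Log2 fold change of morphine over control by edgeR (horizontal axis, point) with its standard error (bar) for 24 of the 25 partner genes, coloured by role. Lrrtm4 lies farthest from 0, at 0.89, and the 3 cytoplasmic partners lie below 0.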

How the data were processed

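RNA of MOR-expressing PVT neurons from 4 control and 4 morphine libraries was analysed. The authors deposited whole-number read counts per RefSeq transcript, not normalized, with mm10 named as build per the labels. The authors describe Salmon and tximport for their own gene-level counts. Whether the deposited transcript rows come from these or from another tool is not given in the sources used here. One row per gene, that with the highest total, was kept (18939 genes of 24488 rows), and 0 columns were left without a sample. Library totals are given with the results. Counts were scaled by TMM and tested with edgeR 4.0.16 (glmQLFit, R 4.3.3) with Benjamini-Hochberg adjustment over all genes and a threshold of 0.05, with sex and its interaction in further fits. The test was checked on simulated counts. DESeq2 1.42.0, limma-voom 3.58.1, other scaling and filters, marker scores as covariates, and the omission of each library were alternatives. Log2 CPM used a prior count of 2. Correlations were tested by exact permutation.

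Named are the 8 genes, others whose symbols start with Nrxn, Cbln or C1ql, the 3 partners with the lowest p (others by role), and the 5 genes most like the gene of lowest p by edgeR. Some items under this rule are not reported here. Members and lists were chosen with earlier results of these data known. Locations are from GENCODE vM21 and RefSeq on GRCm38. The labels state separate pools of mice per library, and replicate pairs all differed beyond sampling noise. Sequencing batches are not given in the sources used here.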

Additional observations from a re-analysis of the deposited data

Results flagged for a closer look

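Of 16 groups of 4 libraries (8 genes in 2 conditions), 1 held a library far from the others. The C1ql1 level of control replicate 2, 10.9 CPM, was separated from the other control libraries, at 3.03, 2.89 and 1.55 CPM, by more than Dixon's 95% critical value for 4 values. Chance gives such a separation in about 1 in 20 groups if values are normally distributed. The rule was applied to CPM and not to log2 CPM, and the outcome can depend on that scale. The same library held the highest summed astrocyte markers of the controls, 70.5 CPM, and the part of these cells was not tested.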

How the results depend on the processing

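The count of the 8 genes passing the adjusted threshold was 0 in edgeR and under all 17 alternatives, DESeq2 and limma-voom included, and their unadjusted count was 0 to 2. Of 136 values of the 8 genes under these alternatives, 127 kept their direction and their side of the threshold and 9 turned in direction. With the telencephalic marker score in the model, Cbln3 was 0.019 and C1ql3 -0.25 (log2), both turned in direction, while Cbln4 was 1.34, Cbln2 0.55 and C1ql1 1.19. Cbln4 and Cbln2 were the 2 genes under an unadjusted 0.05 in that fit. With the choroid plexus score C1ql1 was -1.59 and C1ql3 -0.24, both turned, while Cbln1 was 0.03 and Nrxn2 -0.44. That score differed between the groups, so its fit cannot well separate it from morphine. With 1 library left out, Nrxn2 ran from -0.15 to 0.14, C1ql1 from -0.63 to 1.09 and C1ql3 from -0.042 to 0.26. The cause was not tested.

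Over all genes, 37 were called, and 14 with filterByExpr, 502 by DESeq2, 23 by limma-voom, 110 with sex in the model, 22 with rows summed, 1 given a telencephalic score, and 0 by edgeR given that of the choroid plexus (656 at an unadjusted p under 0.05). With 1 library left out the count ran from 0 to 77. It was 1 without control replicate 1, 20 without control replicate 5, 77 without control replicate 6 or morphine replicate 3, and 11 without morphine replicate 7. It was 0 by edgeR without morphine replicate 4 or 8 (1696 and 1664 unadjusted). Between the sexes 1 gene was called, 21 by DESeq2, and 0 to 5 with 1 library left out (0 without morphine replicate 3, 580 unadjusted, and 5 without control replicate 5). For the interaction edgeR called 0 (325 unadjusted), DESeq2 4, and edgeR 0 to 5 with 1 library left out (1 without control replicate 1, 5 without control replicate 6). No paired analysis was possible because each library is a separate pool of mice and the labels give no pairing. Cbln3 rests on the fewest counts, 16 to 48 per library. The effect of depth on its interval was not tested.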

Other observations

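Control replicate 2 and morphine replicate 8, the deepest library of each group (43311793 and 47582947 counts), were the 2 highest libraries for Nrxn2 and C1ql1. They were also the 2 highest for 6 of the 25 partner genes (24%), among them the GluD receptor gene Grid1, the neuroligin inhibitor Mdga1, the neurexophilin Nxph4, the calsyntenin Clstn3 and the inhibitory synapse neuroligin Nlgn2. Nxph4 stood at 7.43 CPM in control replicate 2 and 4.09 CPM in morphine replicate 8 and between 1.21 and 2.63 CPM in the other 6 libraries. Of 12989 genes with a mean of at least 1 CPM, 9.59% had these libraries as their 2 highest. This pair was singled out after its values were seen, and the shares are a description with no test. Control replicate 5 was nearly as deep as control replicate 2, at 43233496 counts. It had the lowest Nrxn2 level of the controls, 239 CPM, and 2.89 CPM of C1ql1. The part of depth was not tested.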
